A study of Mus musculus with 6 samples.

Results

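The genes described are the mouse genes of the proteasome: its subunits, its activators and its assembly factors. They were taken by symbol, as the genes of the normalized expression table whose symbol starts with Psma to Psmg and a number. Psmb8 and Psmb9, which interferon induces, and pseudogenes were left out. Of 48 matching genes 46 remained, among 12179 genes in the normalized table. They comprise 8 genes of the 20S alpha ring, 8 of the 20S beta ring, 6 ATPases and 11 non-ATPase subunits of the 19S particle, 5 activators and inhibitors, and 7 assembly chaperones. The remaining gene, Psmc3ip, matched by symbol only and encodes a recombination protein that is no proteasome subunit.

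The proteasome degrades proteins that carry ubiquitin chains. Its 20S core is a barrel of alpha and beta rings, with the proteolytic sites inside the beta rings, and the 19S particle binds, deubiquitinates, unfolds and feeds substrates into the core. Other caps open the core without the 19S particle, and dedicated chaperones build the rings and are not part of the finished complex. Constitutive subunits are made in nearly every cell, since the complex needs each of them, and hematopoietic stem cells are known to depend on tightly set protein turnover.

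There were 3 WT and 3 Foxm1 HET libraries from C57BL/6 mice, which the study describes as 3 pairs of mice at 8 weeks of age, and the genotypes were compared to ask how loss of 1 Foxm1 allele altered expression in stem cells. The cells were long-term hematopoietic stem cells (LT-HSCs) sorted from bone marrow (BM) by the surface profile CD150+CD48-LSK, where LSK stands for lineage-negative, Sca-1+ and c-Kit+. The labels name no treatment. The genotype labels read WT and HET, the titles of the heterozygous libraries name only the floxed allele, and the driver of Cre was not given for the RNA-Seq. Elsewhere the study used heterozygous mice with Tie2-Cre, active in endothelial and blood cells and in their common ancestors, and others with Mx1-Cre, which is induced by poly(I:C). The controls in several of those experiments carried 1 floxed allele without Cre. Which of these mice gave the RNA-Seq libraries cannot be told apart here. Reads of Foxm1 itself numbered 1182, 2615 and 2942 in WT, against 659, 5 and 742 in Foxm1 HET, lower in each heterozygous library than in each WT library.

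Counted reads ran from 14573002 to 25798509 per library, and between 4467 and 9894 genes reached 10 reads. Foxm1 HET replicate 2 stood apart, with the fewest reads and the fewest genes. Of the LT-HSC markers, Kit had at least 10720 and Hlf at least 11752 reads in every library, but others were uneven. Ly6a, which encodes the sort marker Sca-1, had 125, 4 and 2 reads in the WT libraries, against 2261, 2 and 1597 in the heterozygous libraries. Procr fell to 20 reads in WT replicate 2 and 3 in Foxm1 HET replicate 2, and Mecom to 60 in WT replicate 3. Slamf1, which encodes the sort marker CD150, had 2, 1572 and 0 reads in the WT libraries, against 8, 0 and 543 in the heterozygous libraries, and Cd48, selected against in the sort, reached 6608 reads in WT replicate 2. The 7 neutrophil markers summed to between 4830 and 18443 reads per 1e6 counted reads, adjusted for library composition (CPM), in WT and between 727 and 15890 in Foxm1 HET. The stem cell markers Slamf1, Kit, Ly6a, Procr, Hlf and Mecom summed to between 1861 and 4050 CPM in WT and between 1262 and 8836 in Foxm1 HET. Cd34, Flt3 and Cd48, which mark more committed progenitors, summed to at most 1395 CPM in WT and 461 in Foxm1 HET. The 5 erythroid markers found summed to at most 160 CPM and the 4 B cell markers to at most 1825, both in WT. The T cell, macrophage and megakaryocyte lists reached at most 18.8, 123 and 10.5 CPM in any library. Hba-a1, Cd79a, Cd3d, Cd3g, C1qa and C1qb were at 0 in every library. The part of these markers in the results on the proteasome was not tested. In bulk samples of this kind, fewer cells of a type and less RNA per cell cannot be told apart.

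Proteasome transcripts were found unevenly from library to library. At least 10 reads were counted for 37, 28 and 28 of the 46 genes in WT replicates 1, 2 and 3 and for 41, 17 and 43 in Foxm1 HET replicates 1, 2 and 3. As a share these were 80.4%, 60.9% and 60.9% in WT, compared with 89.1%, 37.0% and 93.5% in Foxm1 HET. The same shares over the 12179 genes were 63.8%, 55.6% and 48.6% in WT, compared with 79.2%, 36.4% and 75.8% in Foxm1 HET. The proteasome share thus lay above the share of all genes in every library, and by the least in Foxm1 HET replicate 2. The means were 31.0 ± 5.20 genes (SD, n = 3) in WT, compared with 33.7 ± 14.5 (SD, n = 3) in Foxm1 HET, and the groups overlapped. Without Foxm1 HET replicate 2 the heterozygous mean was 42.0.

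**Figure D1:**
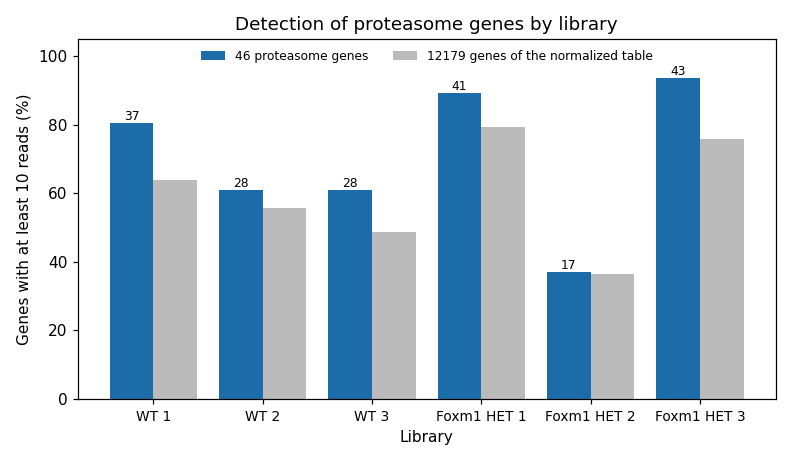
Percentage of genes with at least 10 reads in each of the 6 libraries, for the 46 proteasome genes (blue bars, with the number of genes above each) and for the 12179 genes of the normalized table (grey bars). Foxm1 HET replicate 2 had the lowest share of both, with 17 proteasome genes, and Foxm1 HET replicate 3 the highest share of proteasome genes, with 43.

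Only 9 of the 46 genes reached 10 reads in all 6 libraries, namely Psma2, Psmc3, Psmc6, Psmd1, Psmd8, Psmd12, Psme1, Psme3 and Psme4. Of the 12179 genes, 20.6% did so. Most proteasome genes, like most of all genes, were abundant in some libraries and nearly absent from others. Of the 46, 31 (67.4%) had at least 100 reads in 1 library and at most 3 in another, against 61.7% of all genes. Leaving out Foxm1 HET replicate 2 left 23 of the 46 genes and 52.1% of all genes with such a gap. Among the 42 genes kept by the filter on low counts and tested, 17 had their lowest level in that library, ties included, as did 36.3% of all genes tested. The level of a single proteasome gene varied with a median SD of 3.39 in log2 CPM over the 6 libraries, where the median over all genes tested was 3.20.

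**Figure D2:**
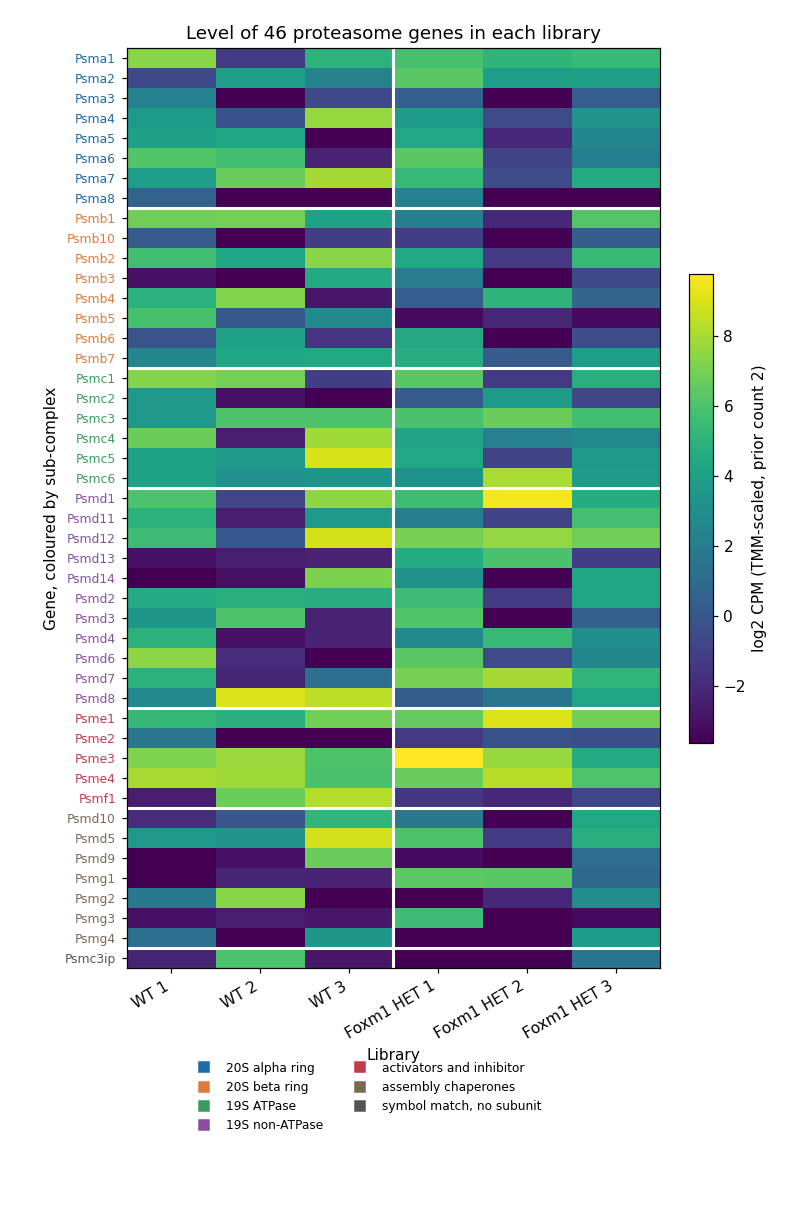
Expression of the 46 proteasome genes (rows, coloured and separated by sub-complex) in the 6 libraries (columns), as log2 CPM with TMM scaling and a prior count of 2, from dark (low) to yellow (high). Dark and bright cells alternate within each sub-complex and within each genotype, and Foxm1 HET replicate 2 is dark across most of the alpha and beta rings.

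The summed output of the genes did not separate the genotypes. The 46 genes took 0.194%, 0.217% and 0.292% of counted reads in WT, compared with 0.362%, 0.132% and 0.155% in Foxm1 HET. After TMM scaling they summed to 1765, 2206 and 3932 CPM in WT, compared with 2420, 2967 and 958 CPM in Foxm1 HET. The means were 2634 ± 1145 CPM (SD, n = 3) in WT, compared with 2115 ± 1039 CPM (SD, n = 3) in Foxm1 HET, so the ranges overlapped, and the heterozygous mean was 1689 CPM without replicate 2. The order of the means turned with RLE scaling, at 2490 CPM in WT and 2777 CPM in Foxm1 HET, and with upper-quartile scaling, at 2264 and 2397 CPM. A different gene led in each library: Psme4, Psmd8 and Psmc5 in WT replicates 1, 2 and 3, and Psme3, Psmd1 and Psme1 in Foxm1 HET replicates 1, 2 and 3. Psme3 alone gave 36.4% of proteasome reads in Foxm1 HET replicate 1.

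Levels of different genes were compared per length, as TPM, the share of reads per base of exon scaled to a fixed total. Mean TPM over the 6 libraries was highest for the activator subunits Psme1 (277) and Psme3 (256) and for the lid subunits Psmd8 (202) and Psmd12 (184). It was lowest for Psmb10 (1.17), Psma8 (1.79), Psme2 (2.02) and Psma3 (2.53). Psma3 encodes a constitutive ring subunit, Psmb10 an inducible catalytic subunit, and Psma8 the testis form of Psma7. Of the 50-base transcript stretches of Psma3 and Psme2, 15.4% and 28.3% occur also in other genes, so their counts are uncertain. Of the 46 genes, 10 had a mean of at least 100 TPM and 5 a mean under 10 TPM, around a median of 50.8 TPM. Some means rested on few libraries. Psme3 was at 1055 TPM in Foxm1 HET replicate 1 and at most 193 TPM elsewhere. Psmd8 was at 801 and 348 TPM in WT replicates 2 and 3 and at most 49.8 TPM elsewhere. The level was steadiest for Psme4, with an SD of 1.04 in log2 CPM over 6 libraries, and for Psmc3 (1.11), Psme1 (1.46) and Psmb7 (1.73). It varied most for Psmf1 (4.84), Psmd14 (4.73), Psmd6 (4.52) and Psmg1 (4.49).

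Between genotypes, no proteasome gene passed the test. Psmb5 and Psmf1 had the lowest fitted levels in Foxm1 HET relative to WT, and Psmg1 and Psmd13 the highest. Of the 42 genes tested, 0 passed an adjusted p of 0.05 (edgeR's quasi-likelihood test, Benjamini-Hochberg adjusted over 8195 genes, of which 0.329% passed), and 5 had an unadjusted p under 0.05. Of all genes tested, 6.03% had such an unadjusted p. The 5 genes were Psmd13 and Psmg1, with higher values in Foxm1 HET (3.44% of all genes), and Psmb5, Psmd8 and Psmf1, with lower values (2.59% of all genes). DESeq2's Wald test gave an adjusted p under 0.05 to 4 of 29 genes, Psmb5, Psmd13, Psmf1 and Psmg1, where 3.13% of all genes with an adjusted p were called. With limma-voom 0 had an adjusted p under 0.05 (0.0488% of all genes), and Psmb5 and Psmg1 alone had an unadjusted p under 0.05 (3.31% of all genes). With limma on the normalized values, 4 had an unadjusted p under 0.05, namely Psmd7, Psmd8, Psme1 and Psmg1 (2.04% of all genes). Without Foxm1 HET replicate 2, edgeR gave an unadjusted p under 0.05 to 3 of 45 genes, Psmd8, Psmf1 and Psmg1 (6.36% of all genes).

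In log2 CPM, the WT and Foxm1 HET libraries were without overlap for 5 of the 42 genes and for 8.68% of all genes tested. Psma2, Psmd7, Psmd13 and Psmg1 had higher values in each Foxm1 HET library (4.12% of all genes in this direction) and Psmb5 lower values (4.55%). For each of the 5 a two-sided exact permutation test gave p = 0.1, the smallest that 3 libraries against 3 allow. Genes without overlap always reach this value, so it adds nothing to the separation by which they were picked. Psmb5, Psmd7, Psmd13 and Psmg1 were without overlap under RLE, upper-quartile and library-size scaling too, whereas Psma2 overlapped with RLE and library-size scaling. Psme1 was without overlap with upper-quartile and library-size scaling and Psmc3 with upper-quartile scaling, both with higher values in Foxm1 HET. Leaving out a library cannot undo a separation, so the 5 genes had to stay without overlap when Foxm1 HET replicate 2 was dropped. No further gene of the 42 joined them. Of all genes, 11.9% then had higher and 7.13% lower values in each Foxm1 HET library. Psmb5, Psmd13 and Psmg1 reached 10 reads in all libraries of one genotype and in none of the other. They therefore passed the filter on low counts only through the genotype in which they were high and had to differ. Of the 12179 genes, 0.123% reached 10 reads in the 3 WT libraries alone and 0.517% in the 3 Foxm1 HET libraries alone.

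The counted gene models in GRCm38 are chr14:54614120-54617995 on the minus strand for Psmb5, chr7:140882394-140898642 on the plus strand for Psmd13 and chr16:95979935-95990903 on the minus strand for Psmg1. Those of Psma2 and Psmd7 are chr13:14613242-14625673 on the plus strand and chr8:107580380-107588482 on the minus strand. Counts cover all exons of a gene, so the values refer to whole genes and not to single exons or UTRs.

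**Figure D3:**
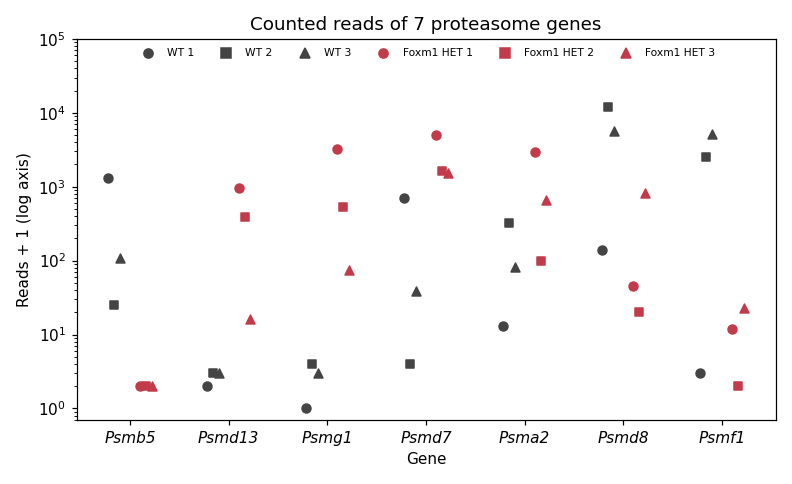
Counted reads plus 1 (log axis) of 7 proteasome genes in each library, with WT in grey and Foxm1 HET in red and the symbol giving the replicate number. Psmb5 had 1 read in each Foxm1 HET library, Psmd13 and Psmg1 had at most 3 reads in each WT library, and the counts of Psmd8 and Psmf1 overlapped between genotypes.

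The direction over the whole group depended on the scaling. With TMM scaling 14 of the 42 genes had a log2 fold change above 0 and 28 below 0, with a median of -0.46, while 45.4% of the 8195 genes were above 0 and their median was -0.26. With upper-quartile scaling 21 were above and 21 below, and with library size only 20 and 22. The median of all genes moved to 0.14 with upper-quartile scaling, a shift of over 0.1. Relative to the median of all genes, that of the proteasome genes lay at -0.20 with TMM and at -0.17 with upper-quartile scaling. The mean log2 CPM of the 42 genes was 2.72 ± 0.69 (SD, n = 3) in WT, compared with 2.65 ± 1.17 (SD, n = 3) in Foxm1 HET. The median standard error of a log2 fold change was 2.57 and the smallest was 1.64, so differences of the size of these medians were not detectable for any single gene.

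**Figure D4:**
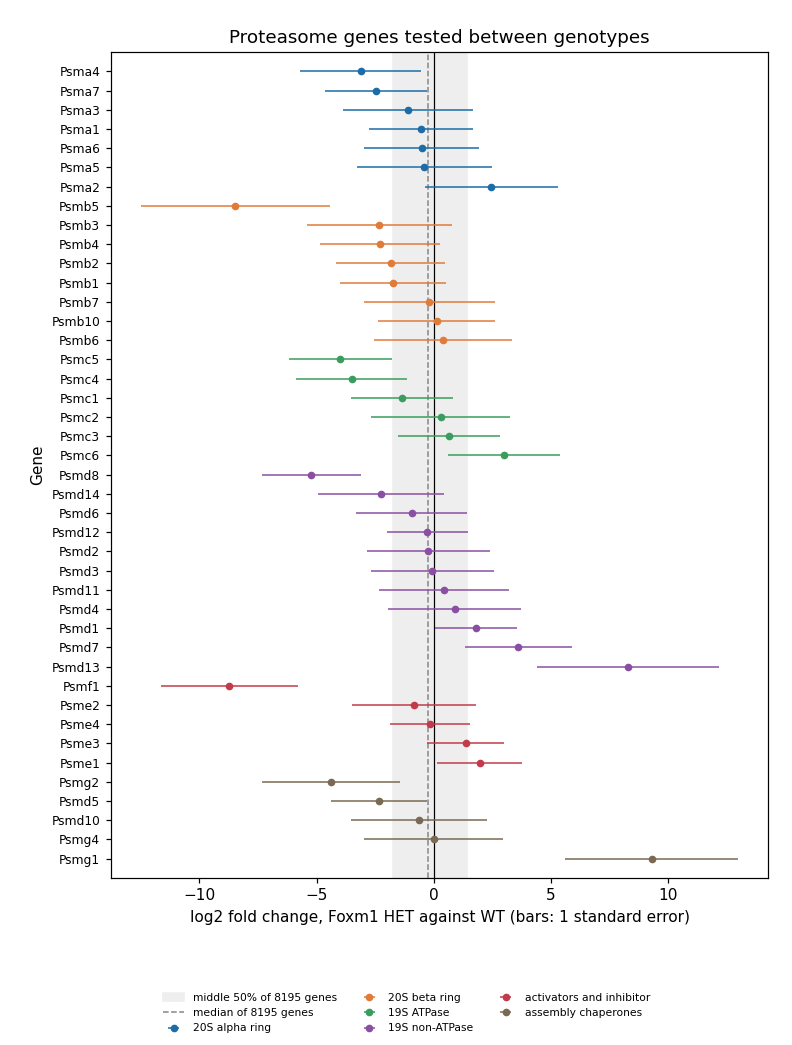
Log2 fold change of Foxm1 HET against WT (edgeR, TMM scaling) for the 42 proteasome genes tested, with bars of 1 standard error, coloured by sub-complex. The shaded band holds the middle 50% of the 8195 genes and the dashed line their median of -0.26. Of the 42 points 28 lie below 0, or 21 with upper-quartile scaling, and Psmb5, Psmd13, Psmf1 and Psmg1 lie farthest from 0.

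Within the 20S core, the constitutive rings had mostly lower fitted values in Foxm1 HET. Of the 14 constitutive core genes, 2 were above 0 and 12 below 0, with a median log2 fold change of -1.42. None had an adjusted p under 0.05. Of all genes tested, 45.4% were above 0, with a median of -0.26. The split of the core genes was 4 and 10 with upper-quartile scaling (median -1.05) and with library size only (median -0.74). Under these scalings 52.8% and 52.0% of all genes were above 0, with medians of 0.14 and 0.096. Without Foxm1 HET replicate 2 the split was 5 and 9 with a median of -0.80, against 44.7% above 0 and -0.30 for all genes. The median level of the 14 genes was 36.0, 36.5 and 18.0 TPM in WT, compared with 61.2, 0.405 and 26.4 TPM in Foxm1 HET. Foxm1 HET replicate 2 was far below all other libraries, Foxm1 HET replicate 1 above all others, and the genotypes overlapped. In Foxm1 HET replicate 2 only 3 of the 14 genes reached 10 reads, against 9 to 13 in the other libraries.

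**Figure D5:**
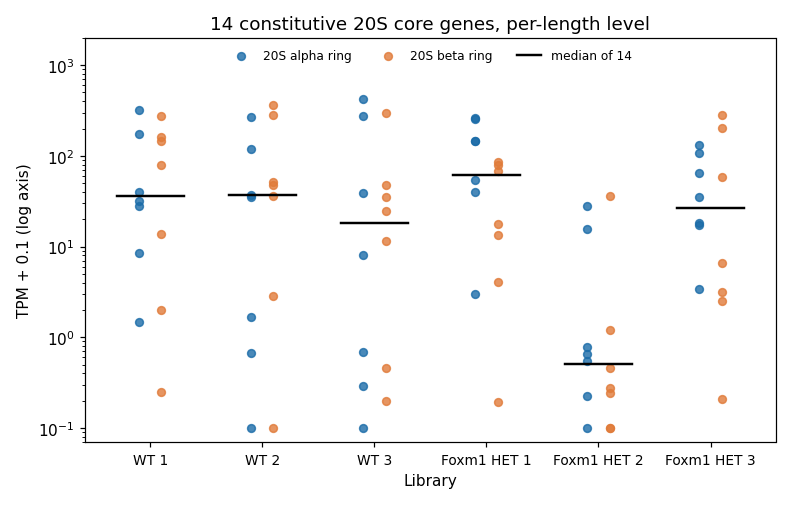
Per-length level (TPM plus 0.1, log axis) of the 14 constitutive 20S core genes in each library, with alpha ring genes in blue and beta ring genes in orange and a black line at the median of the 14. The median was 0.405 TPM in Foxm1 HET replicate 2 and between 18.0 and 61.2 TPM in the other libraries, and the genes of 1 library spread over several powers of 10.

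The alpha ring forms the gate of the core. Of its 8 genes 8, 5 and 4 reached 10 reads in WT, compared with 8, 2 and 7 in Foxm1 HET. Among the 7 tested, 1 had a log2 fold change above 0, namely Psma2, where 45.4% of all genes did. The others ran from -3.13 to -0.40. Without Foxm1 HET replicate 2, 8 were tested, of which 4 were above 0 and 4 below 0, with a median of -0.11. In that fit 44.7% of all genes were above 0, with a median of -0.30. Psma2 had 12, 325 and 81 reads in the WT libraries, against 2971, 97 and 668 in the heterozygous libraries. The raw counts of the genotypes overlapped, and only after scaling was the highest WT library, at 3.85 in log2 CPM, below the lowest Foxm1 HET library, at 3.91. Its log2 fold change came to 2.45 with a standard error of 2.83 (adjusted p = 0.998 from edgeR's test). Psma3 had 111, 0 and 9 reads in the WT libraries, against 51, 0 and 51 in the heterozygous libraries, with replicate 2 at 0 in both genotypes. Psma8, the testis form, had 33 reads in WT replicate 1 and 177 in Foxm1 HET replicate 1, and was at 0 in the other libraries.

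The beta ring carries the catalytic sites. Of its 8 genes, 7, 6 and 5 reached 10 reads in WT, compared with 7, 1 and 7 in Foxm1 HET. Of the 8 tested, 2 were above 0 and 6 below 0 on the log2 scale, where 45.4% of all genes were above 0. Psmb5, the chymotrypsin-like subunit, had 1294, 24 and 107 reads in WT and 1 read in each Foxm1 HET library. Each WT library thus lay above each Foxm1 HET library, and WT replicate 1 held most of the WT reads. Pooled over libraries, WT held 484 times the Foxm1 HET reads per counted read, and 676 times with TMM scaling. The 95% exact interval of the first ratio, 165 to 2349, covers counting error only. These ratios only describe the counts, since Psmb5 passed the filter through WT alone and had to differ. The log2 fold change came to -8.47 with a standard error of 4.04 (adjusted p = 0.768 from edgeR's test). It lay between -9.50 and -5.90 over the 6 fits that each dropped a library. Of the 50-base stretches of Psmb5 transcripts, 54.1% also occur in other annotated genes, among them the pseudogene Psmb5-ps, so its counts are uncertain.

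The other catalytic subunits did not separate the genotypes. Psmb6, the caspase-like subunit, had 18, 374 and 4 reads in the WT libraries, against 854, 0 and 27 in the heterozygous libraries. Psmb7, the trypsin-like subunit, had 122, 453 and 362 reads in the WT libraries, against 1005, 7 and 608 in the heterozygous libraries. For both, Foxm1 HET held the highest count in replicate 1 and the lowest in replicate 2. Psmb10, which replaces Psmb7 in the immunoproteasome, had 24, 0 and 6 reads in the WT libraries, against 14, 0 and 50 in the heterozygous libraries. The log2 fold changes were 0.39 (standard error 2.96) for Psmb6, -0.20 (2.80) for Psmb7 and 0.12 (2.49) for Psmb10, each smaller than its error and each turning sign under some other setting. In the same TPM units the means of Psmb5, Psmb6, Psmb7 and Psmb10 in WT were 58.5 ± 89.0, 12.9 ± 20.4, 31.9 ± 17.0 and 0.83 ± 1.08 (SD, n = 3). In Foxm1 HET they were 0.12 ± 0.04, 23.4 ± 38.5, 48.2 ± 43.0 and 1.52 ± 1.90 TPM (SD, n = 3).

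The 6 ATPases of the 19S base form the ring that unfolds substrates. All 6 reached 10 reads in WT replicate 1 and in Foxm1 HET replicates 1 and 3, and 4 did in each of the other libraries. Of the 6, 3 had log2 fold changes above 0 and 3 below 0, where 45.4% of all genes were above 0. They ran from -3.99 for Psmc5 to 2.99 for Psmc6, and none had an unadjusted p under 0.05. Psmc6 had 400, 202 and 168 reads in the WT libraries, against 346, 1781 and 586 in the heterozygous libraries, and its fold change turned to -0.067 without Foxm1 HET replicate 2. Without that library 1 of the 6 was above 0 and 5 below 0, where 44.7% of all genes were above 0. Of the exon bases of Psmc6, 35.3% belong also to another annotated gene. Psmc3 had 250, 1477 and 1053 reads in the WT libraries, against 2341, 688 and 2206 in the heterozygous libraries. It was detected in every library, its counts overlapped between genotypes, as did its log2 CPM except with upper-quartile scaling, and its log2 fold change came to 0.63 with a standard error of 2.18. Psmc5 was dominated by 1 library, with 390, 276 and 8011 reads in WT, compared with 789, 3 and 508 in Foxm1 HET.

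The non-ATPase subunits of the 19S particle bind ubiquitin, remove it and hold the base and lid together. Of these 11 genes, 9, 5 and 7 reached 10 reads in WT, compared with 11, 6 and 11 in Foxm1 HET. Log2 fold changes were above 0 for 5 and below 0 for 6, with a median of -0.07, and 8 were above 0 with upper-quartile scaling. Of all genes, 45.4% were above 0 with TMM and 52.8% with upper-quartile scaling. Psmd13, a lid subunit, had 1, 2 and 2 reads in the WT libraries, against 962, 391 and 15 in the heterozygous libraries. No WT library reached the lowest Foxm1 HET library, although Foxm1 HET replicate 3 held only 15 reads. Per counted read, Foxm1 HET held 269 times the WT reads (95% exact interval 115 to 828, counting error only), and 192 times with TMM scaling. Reads were pooled over libraries for this ratio, and Foxm1 HET replicate 1 held most of them. The ratio only describes the counts, since Psmd13 passed the filter through Foxm1 HET alone and had to differ. The fitted log2 fold change came to 8.30 with a standard error of 3.88 (adjusted p = 0.753 from edgeR's test). Of its 50-base transcript stretches, 8.23% occur also in another gene, mostly in its neighbour Sirt3.

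Psmd7, the partner of the deubiquitinase Psmd14, had 707, 3 and 38 reads in the WT libraries, against 5061, 1623 and 1513 in the heterozygous libraries. Its lowest Foxm1 HET library held more reads than its highest WT library, before and after scaling. The log2 CPM were 1.36 ± 3.61 (SD, n = 3) in WT, compared with 6.74 ± 1.42 (SD, n = 3) in Foxm1 HET, and the fitted log2 fold change came to 3.60 with a standard error of 2.28 (adjusted p = 0.941). Its transcripts share no 50-base stretch with other annotated genes. Psmd14 itself, which cuts ubiquitin chains from substrates, had 0, 1 and 2234 reads in the WT libraries, against 363, 0 and 820 in the heterozygous libraries. It was absent or nearly so from 3 libraries, of both genotypes.

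Psmd8, a lid subunit, had 140, 12014 and 5653 reads in the WT libraries, against 45, 19 and 815 in the heterozygous libraries. WT replicates 2 and 3 lay above all Foxm1 HET libraries, and WT replicate 1 fell within their range. The log2 fold change came to -5.24 with a standard error of 2.11 (unadjusted p = 0.013, adjusted p = 0.533 from edgeR's test), and the exact permutation test gave p = 0.2. Psmd12 had 1045, 21 and 7876 reads in the WT libraries, against 4978, 1285 and 4844 in the heterozygous libraries. Its fitted log2 fold change of -0.28 (standard error 1.74) had the opposite sign to the difference of mean log2 CPM, 4.84 ± 4.51 in WT and 7.17 ± 0.41 in Foxm1 HET (SD, n = 3). WT replicate 2 was low and WT replicate 3 high. Psmd6 had 3831, 4 and 0 reads in the WT libraries, against 3149, 4 and 262 in the heterozygous libraries, so that 1 library of each genotype held most of the reads.

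Activators and inhibitors act on the core in place of, or beside, the 19S particle. Psme3, Psme4 and Psme1 were among the genes found in every library. Psme1, part of the interferon-responsive 11S cap, had 882, 664 and 1934 reads in the WT libraries, against 3653, 3367 and 5118 in the heterozygous libraries. Every Foxm1 HET library held more reads than every WT library, and the genotypes were also apart with upper-quartile and library-size scaling. After TMM scaling the ranges overlapped, with WT replicate 3 at 6.92 and Foxm1 HET replicate 1 at 6.58 in log2 CPM. The log2 fold change came to 1.96 with a standard error of 1.82, and the exact permutation test gave p = 0.2. Its levels were 117 ± 60.3 TPM in WT and 437 ± 114 TPM in Foxm1 HET (SD, n = 3).

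Psme2, which pairs with Psme1 in the same cap, had 69, 0 and 0 reads in the WT libraries, against 12, 5 and 28 in the heterozygous libraries. With 977 exon bases in each gene, Psme2 was counted far less often than its partner in every library. Of its 50-base transcript stretches, 28.3% occur also in other genes, mainly in Psme2b, and the part of this in the low count was not tested. Psme3, the nuclear activator, had 3210, 4999 and 1065 reads in the WT libraries, against 33598, 1356 and 1039 in the heterozygous libraries, and Foxm1 HET replicate 1 alone stood above the WT range. Its log2 fold change of 1.37 (standard error 1.64) turned to -0.35 without that library. Psme4, a large single-chain activator, had 5683, 5356 and 970 reads in the WT libraries, against 3980, 2076 and 2873 in the heterozygous libraries. Its log2 fold change came to -0.17 with a standard error of 1.72, the counts of Foxm1 HET lay within the WT range, and RLE scaling gave 0.55.

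Psmf1, an inhibitor of the core in the test tube, had 2, 2515 and 5099 reads in the WT libraries, against 11, 1 and 22 in the heterozygous libraries. All Foxm1 HET libraries were low, WT replicates 2 and 3 were high, and WT replicate 1 was as low as Foxm1 HET. Its log2 fold change of -8.74 (standard error 2.92) had the smallest p of the 42 genes (unadjusted p = 0.003, adjusted p = 0.243 from edgeR's test). The exact permutation test over the same libraries gave p = 0.4, as the genotypes overlapped. The fitted value lay between -9.20 and -7.42 over the fits that each dropped a library.

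The assembly chaperones were often missing. Of 7 genes, 3, 3 and 4 reached 10 reads in WT, compared with 4, 1 and 6 in Foxm1 HET. Psmg1, which with Psmg2 guides assembly of the alpha ring, had 0, 3 and 2 reads in the WT libraries, against 3277, 538 and 73 in the heterozygous libraries. Each Foxm1 HET library stood above each WT library, and all WT libraries were at or under 3 reads. Per counted read, Foxm1 HET held 763 times the WT reads (95% exact interval 327 to 2352, counting error only), and 546 times with TMM scaling. Most of the pooled reads came from Foxm1 HET replicate 1. This ratio only describes the counts, since Psmg1 passed the filter through Foxm1 HET alone and had to differ. The fitted log2 fold change came to 9.30 with a standard error of 3.69 (adjusted p = 0.506 from edgeR's test) and lay between 8.75 and 9.89 over the fits that each dropped a library. None of its 50-base transcript stretches occurs in another gene. Its partner Psmg2 had 74, 3772 and 0 reads in the WT libraries, against 0, 1 and 331 in the heterozygous libraries, with the genotypes overlapping, and 30.1% of its exon bases belong also to another annotated gene.

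The genes that the filter on low counts removed were Psma8, Psmd9, Psmg3 and Psmc3ip, and each reached 10 reads in only 1 or 2 libraries. Psmd9, a chaperone of the 19S base, had 0, 1 and 1661 reads in the WT libraries, against 1, 0 and 92 in the heterozygous libraries. Psmg3, a chaperone of the alpha ring, had 1, 2 and 1 reads in the WT libraries, against 1790, 0 and 1 in the heterozygous libraries. Both were therefore high in a single library. Psmc3ip, the recombination protein, had 3, 1430 and 1 reads in the WT libraries, against 0, 0 and 123 in the heterozygous libraries, so that WT replicate 2 held most of its reads.

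Promoter sequences are shown for 4 of the 5 genes whose genotypes did not overlap, since these are the genes whose libraries separated by genotype. The promoter of Psmd7 was not in the table used. Each sequence is the 250 bases before the RefSeq start in GRCm38.p6, read 5′ to 3′ on the strand of the gene, with motif matches in capitals. The motifs searched on both strands were the CCAAT box (CCAAT), an antioxidant pattern (TGANNNNGC, where N is any base) and a forkhead core (TAAACA), the family of Foxm1. The antioxidant pattern is a loose form of the core of the antioxidant response element, through which Nfe2l1 acts on proteasome genes. Psma2 lies at chr13:14612992-14613241 on the plus strand, Psmb5 at chr14:54617996-54618245 on the minus strand, Psmd13 at chr7:140882144-140882393 on the plus strand and Psmg1 at chr16:95990961-95991210 on the minus strand.
Psma2: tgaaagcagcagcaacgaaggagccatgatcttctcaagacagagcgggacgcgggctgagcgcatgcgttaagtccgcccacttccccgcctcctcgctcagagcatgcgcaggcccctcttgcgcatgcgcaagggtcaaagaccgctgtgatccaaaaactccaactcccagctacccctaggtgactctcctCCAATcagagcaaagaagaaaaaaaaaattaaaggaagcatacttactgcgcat
Psmb5: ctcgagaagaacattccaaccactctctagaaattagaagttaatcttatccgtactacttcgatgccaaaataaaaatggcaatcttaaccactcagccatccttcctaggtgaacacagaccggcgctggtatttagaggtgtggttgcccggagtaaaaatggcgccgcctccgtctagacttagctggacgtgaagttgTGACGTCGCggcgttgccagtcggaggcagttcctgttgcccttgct
Psmd13: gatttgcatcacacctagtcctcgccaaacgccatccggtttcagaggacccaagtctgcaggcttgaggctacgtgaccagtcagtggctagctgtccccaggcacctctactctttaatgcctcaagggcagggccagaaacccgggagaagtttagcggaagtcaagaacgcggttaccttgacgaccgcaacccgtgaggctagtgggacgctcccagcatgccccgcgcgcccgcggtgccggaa
Psmg1: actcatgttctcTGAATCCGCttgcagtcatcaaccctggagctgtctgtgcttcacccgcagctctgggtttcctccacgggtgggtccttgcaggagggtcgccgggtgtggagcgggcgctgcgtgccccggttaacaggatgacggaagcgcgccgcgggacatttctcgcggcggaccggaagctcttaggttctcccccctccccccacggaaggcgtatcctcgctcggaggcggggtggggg

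In these windows Psma2 had 1 CCAAT box, starting 54 bases before the start, and Psmd13 had none of the 3 motifs. Psmb5 and Psmg1 each had 1 match to the loose antioxidant pattern, at 47 and 238 bases before the start. Promoters were found for 38 of the 46 genes. Of these 34.2% held a CCAAT box, against 35.7% of tested genes and 34.5% of all promoters, and 34.2% held the antioxidant pattern, against 36.8% and 35.1%. The forkhead core was in 2 of the 38 (5.26%), Psmc1 and Psmd8, against 7.43% of tested genes and 12.0% of all promoters. A match is a description of the sequence only.

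Genes that work with the proteasome were described from a list of 38 genes found in the tables. Of these 33 were tested, 11 with log2 fold changes above 0 and 22 below 0 (median -1.07 with TMM scaling), where 45.4% of all genes were above 0 and their median was -0.26. With upper-quartile scaling 14 were above 0 and 19 below 0 (median -0.66), and with library size only 13 and 20 (median -0.24). None had an adjusted p under 0.05, 1 had an unadjusted p under 0.05 (6.03% of all genes) and 2 were without overlap with TMM scaling (8.68% of all genes). Psmb8 and Psmb9 encode the inducible counterparts of Psmb5 and Psmb6. Psmb9 had 1894, 6740 and 3965 reads in the WT libraries, against 1022, 3 and 2605 in the heterozygous libraries, with a log2 fold change of -2.82 (standard error 1.98). With TMM, RLE and upper-quartile scaling no Foxm1 HET library reached the lowest WT library. The genotypes overlapped with library-size scaling, in TPM and in the normalized table. The exact permutation p of 0.1 with TMM followed from the lack of overlap. Psmb8 had 165, 5 and 670 reads in the WT libraries, against 5526, 152 and 1776 in the heterozygous libraries, with overlapping genotypes and a log2 fold change of 2.09 (standard error 2.44).

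Sqstm1, an autophagy receptor that binds ubiquitin, had 512, 122 and 1 reads in the WT libraries, against 962, 189 and 4834 in the heterozygous libraries. The counts overlapped. The genotypes were without overlap with TMM and upper-quartile scaling but overlapped with RLE and library-size scaling (log2 fold change 2.57, standard error 2.64). Of the 50-base transcript stretches of Sqstm1, 15.5% occur also in Mrnip. Ubqln4, which shuttles ubiquitinated proteins to the proteasome, had 6, 20671 and 7 reads in the WT libraries, against 159, 0 and 1636 in the heterozygous libraries. It was the only gene of the list with an unadjusted p under 0.05 (0.028, log2 fold change -4.40), and this fold change rested on WT replicate 2 and turned to 5.30 without it. Pomp, the chaperone that matures the core, had 230, 1978 and 189 reads in the WT libraries, against 1003, 274 and 1925 in the heterozygous libraries, and Nfe2l1, the factor that raises proteasome genes when degradation fails, had 34, 4 and 1874 against 794, 1 and 633. Neither separated the genotypes. Ubb, a ubiquitin gene, had at most 5 reads in any library, but 48.1% of its 50-base transcript stretches occur also in other genes, so its counts are uncertain.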

How the data were processed

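RNA-Seq was analysed from LT-HSCs in 3 WT and 3 Foxm1 HET libraries, grouped by the genotype labels. Reads were aligned to GRCm38 with STAR 2.7.2b according to the submitters' processing notes, and the counting program and its use of strand were not given in the sources used here. The paper names a Clontech library kit, whereas the labels name ribosomal RNA removal and a stranded kit. The authors deposited raw read counts for 27179 genes, with gene positions and lengths, and a normalized table of 12179 genes in log2 units. The symbols came from the normalized table.

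The count model was that of edgeR 4.0.16, run in R 4.3.3. The filter filterByExpr removed genes with enough reads in too few libraries and kept 8195 genes and 42 of the 46 proteasome genes. Libraries were scaled by TMM (factors from 0.453 to 1.67), and Foxm1 HET was tested against WT by quasi-likelihood without a block, with Benjamini-Hochberg adjustment over the 8195 genes. Log2 fold changes are Foxm1 HET against WT, and their standard errors were taken as the fold change over the square root of F. The common biological coefficient of variation was 1.66. Log2 CPM used a prior count of 2, TPM used the deposited exon lengths, and a permutation test was exact and two-sided. Intervals of ratios are exact 95% binomial intervals and cover counting error only. They pool the libraries of a genotype and leave out the spread between libraries. For Psmb5, Psmd13 and Psmg1, which had to differ, the ratios only describe the counts. The labels do not say that libraries came from separate animals, although the paper speaks of 3 pairs of mice, so p-values measure the spread between these libraries. The edgeR model alone was run on simulated counts, at a low spread between libraries and at the spread estimated from these data. The outcome at the estimated spread is not given, so no power at the spread of these data is claimed.

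Other settings tried were scaling by RLE, by upper quartile or by library size, 2 other filters, DESeq2 1.42.0, limma-voom (limma 3.58.1), limma on the deposited log2 table, the replicate number as a block and each library left out in turn. Shared 50-base transcript stretches came from GENCODE M21. Over 5% of such stretches were shared with other genes for 16 of the 46 genes. Promoters came from RefSeq.

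The genes, lists and tests were chosen with earlier results of these data known. The genes named with values are those with an unadjusted p under 0.05 or without overlap, the 4 highest and lowest in mean TPM, the 4 most and least variable, the catalytic subunits, the untested genes and fixed members of the ubiquitin list. Psmc5, Psmc6 and Psmg2, which fall outside this rule, were chosen after their values were seen, as ends of a range or as a partner. One gene of the ubiquitin list is not reported here.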

Additional observations from a re-analysis of the deposited data

How the results depend on the processing

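At an adjusted p under 0.05, 27 genes passed, and 10 with RLE scaling, 43 with upper-quartile scaling, 7 with library size only, 0 with at least 10 counts in every library (157 of 2516 genes at an unadjusted p under 0.05), 194 with DESeq2, 4 with limma-voom and 1 with limma on the normalized table. Leaving out each library gave 0 to 29 genes, with 0 without WT replicate 1, WT replicate 2 or Foxm1 HET replicate 2, and 1 without WT replicate 3. Among the proteasome genes 0 passed, and 4 with DESeq2. The number with an unadjusted p under 0.05 was 5, against 1 of 9 with at least 10 counts in every library, 2 with limma-voom and 2 to 5 with each library left out, where 2 was the number without Foxm1 HET replicate 1 and 3 that without replicate 2 of Foxm1 HET. With the filter of at least 10 counts, which kept 9 proteasome genes, 6 were above 0 and 3 below 0. Their median log2 fold change was 1.36, where 47.4% of all genes were above 0 with a median of -0.090. With each library left out, 14 to 20 were above 0 and 24 to 30 below 0, and the median lay between -1.34 and -0.15. In the same fits 42.5% to 53.3% of all genes were above 0, with medians between -0.53 and 0.25.

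With the replicate number as a block, 0 genes and 0 proteasome genes passed the adjusted threshold (108 genes at an unadjusted p under 0.05). In that fit 0 proteasome genes had an unadjusted p under 0.05, and 22 of 42 were above 0, as were 52.9% of all genes. The numbers were not taken to pair the libraries, as the deviations of same-numbered libraries correlated at 0.016, -0.025 and -0.069 across genes, and the cause of these losses was not tested.

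Of 372 values of 26 named genes under the alternatives, 316 kept direction and side of the threshold, 4 passed it with DESeq2 (Psmb5 -8.48, Psmd13 9.12, Psmf1 -8.76, Psmg1 9.87) and 52 turned sign. The sign turned with RLE scaling for Psmd12 (0.13) and Psme4 (0.55), with upper-quartile scaling for Psmb7 (0.30), Psmd12 (0.16) and Psme4 (0.14), with library size only for Psmb7 (0.59) and Psmd12 (0.18), and with DESeq2 for Psmb10 (-0.034), Psmd12 (0.13) and Psme4 (0.55). With limma-voom it turned for Nfe2l1 (0.79), Psma3 (0.11), Psmb6 (-0.76), Psmd12 (2.48), Psmd14 (2.10), Psmd6 (3.29) and Psme2 (2.18), and with the normalized table for Psmb10 (-0.73), Psmb6 (-0.47), Psmb7 (0.41), Psmd12 (2.40), Psmd14 (0.055), Psmd6 (1.33) and Psme2 (0.60). With the replicate block it turned for Nfe2l1 (0.068), Psmd12 (1.75), Psmd6 (2.22), Psme2 (4.23) and Ubqln4 (3.27). With each library left out, the log2 fold change ranged from -2.33 to 3.77 for Nfe2l1, -0.39 to 1.76 for Pomp, -1.73 to 1.76 for Psma3, -1.17 to 1.65 for Psmb10, -3.98 to 3.81 for Psmb6, -0.89 to 0.41 for Psmb7, -0.88 to 2.59 for Psmd12, -3.14 to 8.45 for Psmd14, -3.92 to 8.39 for Psmd6, -1.45 to 6.84 for Psme2, -0.35 to 2.01 for Psme3, -1.04 to 0.18 for Psme4 and -7.06 to 5.30 for Ubqln4. The cause was not tested. The values without Foxm1 HET replicate 2 for overlap, summed CPM and detection, the ratios with TMM scaling, the other scalings of the ubiquitin list and the split of the stem cell markers were added after the data were seen. Where both genotypes held at most 3 reads per library, a difference was not detectable.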
